A study of Mus musculus with 10 samples.

Results

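The locus of Cel and Ralgds was described here as the STAT5 peaks on mouse chromosome 2 between 28340000 and 28460000 (mm9), in mammary tissue on the day of parturition. The window was chosen by the wild type STAT5A peaks themselves, since it holds 1 of the largest runs of neighbouring STAT5A peaks in the genome. It contained 18 of the 35791 peaks of the lists analysed: 3 of the 2578 STAT5B peaks of Stat5a-null tissue, 4 of the 6976 STAT5B peaks of wild type tissue and 11 of the 26237 STAT5A peaks of wild type tissue. The number and spacing of the STAT5A peaks are therefore a description and not a finding.

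The tissue came from Stat5a-null mice, titled BB, which keep Stat5b, and from wild type mice, titled AABB, which carry both genes, all of mixed 129SV::FVB/N::C57BL/6 background. Proteins were cross-linked to DNA with formaldehyde and precipitated with a STAT5A or a STAT5B antibody, and the recovered DNA was sequenced (ChIP-seq). Each group was 1 library of whole mammary tissue, so differences between groups lack a replicate check, no p-value is given, and the cell types behind a peak cannot be told apart. Input, RNA polymerase II and H3K4me3 libraries of either genotype and the STAT5A library of Stat5a-null tissue were not analysed here.

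STAT5A and STAT5B are transcription factors that prolactin, acting through its receptor and the kinase JAK2, turns on in the secretory epithelium, where they bind near milk protein genes. Cel encodes carboxyl ester lipase, also called bile salt-stimulated lipase, an enzyme made by the pancreas and secreted into milk in several mammals, which helps the newborn digest milk fat. Ralgds encodes a guanine nucleotide exchange factor that activates the small GTPases RalA and RalB downstream of Ras.

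In the RefSeq annotation of another mouse build, GRCm38.p6, Ralgds and Cel are direct neighbours on chromosome 2. They lie between Gbgt1, which encodes a glycosyltransferase of Forssman glycolipid synthesis, and Gtf3c5, which encodes a subunit of the general RNA polymerase III factor TFIIIC. Ralgds lies on the plus strand and Cel on the minus strand, so that their 3′ ends face each other. An mm9 annotation was not used here and positions were not converted between builds. Whether a given peak lies in Cel, in Ralgds, at their starts or in a neighbouring gene was therefore not determined, and the gene names of the locus rest on the choice of the window.

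The stretches before the starts of the members are shown because they are the regulatory sequence of these genes at hand. RefSeq lists 1 start for Cel and 2 for Ralgds on GRCm38.p6. Each stretch is the 250 bases before a start, 5′ to 3′ on the strand of the gene. Capitals mark the STAT element TTCNNNGAA, its form with a spacer of 4 bases TTCNNNNGAA, and TTGGC, the core of nuclear factor I sites, on either strand. The stretches lie at chr2:28563404-28563653 for Cel (minus strand) and at chr2:28533214-28533463 for the downstream Ralgds start (plus strand). These GRCm38.p6 positions were not converted to mm9, so they were not laid over the mm9 peaks.
Cel: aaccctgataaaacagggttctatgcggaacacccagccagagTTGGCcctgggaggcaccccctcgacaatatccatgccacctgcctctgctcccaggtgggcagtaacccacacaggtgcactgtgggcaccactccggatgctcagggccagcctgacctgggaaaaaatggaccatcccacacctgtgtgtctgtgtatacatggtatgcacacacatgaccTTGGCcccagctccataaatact
Ralgds, downstream start: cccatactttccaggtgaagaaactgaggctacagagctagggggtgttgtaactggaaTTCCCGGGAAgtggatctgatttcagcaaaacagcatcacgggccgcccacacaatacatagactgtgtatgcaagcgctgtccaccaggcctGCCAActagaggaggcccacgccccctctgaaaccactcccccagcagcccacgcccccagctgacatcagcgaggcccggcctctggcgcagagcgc

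TTCNNNGAA was in none of the 3 stretches, and it was in 7.02% of the 32851 stretches of the same length in the RefSeq table. The form with 4 spacer bases occurred once, as TTCCCGGGAA, beginning 191 bases before the downstream Ralgds start, against 5.85% of all stretches. TTGGC occurred at 207 and at 23 bases before the Cel start and, read on the other strand as GCCAA, at 98 bases before the downstream Ralgds start. As 41.5% of all stretches hold this core, its presence is common. The upstream Ralgds start held none of the 3 motifs, had 69.2% G and C, and contained 29 CpG dinucleotides, against 10 at the downstream Ralgds start and 3 at the Cel start. The motif matches are descriptions of the letters and not binding sites.

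STAT5 binding at the locus was concentrated at 3 sites, which were listed for STAT5B with and without Stat5a and for STAT5A. Numbered along the chromosome by the 11 STAT5A peaks, they were site 1 at the left end and sites 9 and 10, which lie 42.5 and 44.7 kb to the right of site 1. STAT5B was also listed at site 5 in wild type tissue, with no peak there in Stat5a-null tissue. The other 7 sites were STAT5A peaks without a listed STAT5B peak in either genotype. STAT5B signal below the authors' threshold at these sites was not measurable. Each list gives the authors' score per peak, a signal of unstated scale. Every score was a whole multiple of a step of 0.210 in the Stat5a-null STAT5B list, 0.239 in the wild type STAT5B list and 0.172 in the wild type STAT5A list. The step was read as the value of 1 sequenced tag. The 95% Poisson intervals given for scores come from these tag counts and cover counting error only. Scores of different lists are given side by side and not compared, because their scaling is unknown.

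Site 1 lies at chr2:28377480-28377755 (mm9, STAT5A peak). STAT5B in Stat5a-null tissue scored 28.6 there (interval 24.0 to 33.9, from 136 tags), the highest of its 3 peaks at the locus. STAT5B in wild type tissue scored 27.2 (22.5 to 32.7, 114 tags), also the highest of its 4 peaks. STAT5A in wild type tissue scored 107 (98.8 to 115.7, 623 tags), second to site 10. Among the peaks of the locus, site 1 thus scored highest in both STAT5B lists but not in the STAT5A list. For wild type STAT5B, its 114 tags and the 109 tags of site 10 did not differ beyond counting error.

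Site 9 lies at chr2:28419991-28420266 and site 10 at chr2:28422135-28422410, separated by 1.87 kb. At site 9, STAT5B scored 13.5 (10.4 to 17.2, 64 tags) in Stat5a-null tissue and 19.8 (15.8 to 24.6, 83 tags) in wild type tissue, and STAT5A scored 95 (87.2 to 103.2, 553 tags). At site 10, STAT5B scored 20.8 (16.9 to 25.4, 99 tags) in Stat5a-null tissue and 26.0 (21.4 to 31.4, 109 tags) in wild type tissue, and STAT5A scored 123.8 (115.0 to 133.2, 721 tags), the highest peak of the locus. Site 9 was the lowest of the 3 shared sites in every list, though for wild type STAT5B it did not differ from site 10 beyond counting error.

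Site 5, at chr2:28395365-28395640 and 17.9 kb from site 1, was the weakest STAT5B site. No STAT5B peak was listed there in Stat5a-null tissue, while wild type STAT5B scored 12.2 (9.07 to 16.0, 51 tags) and wild type STAT5A 40.2 (35.2 to 45.7, 234 tags). The wild type STAT5B score ranked 6267 of 6976 and stood close to the lowest score of that list, 9.3. A peak absent from a list has no value there, so STAT5B signal below the authors' threshold at site 5 in Stat5a-null tissue was not measurable.

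The 7 sites listed for STAT5A alone scored between 21.8 and 40.4. Site 11, at the right end (chr2:28433457-28433732), scored 40.4 (35.4 to 45.9, 235 tags), next to site 5 with 40.2 and yet without a listed STAT5B peak. Site 2 (chr2:28388664-28388939) scored 34.7 and site 8 (chr2:28412976-28413251) 30.4. Site 7 (chr2:28407226-28407501) scored 25.4 and site 4 (chr2:28392758-28393033) 23.2. Sites 3 (chr2:28390375-28390650) and 6 (chr2:28401581-28401856) both scored 21.8, from 127 tags each. These weaker peaks form the body of the run between site 1 and site 9, apart from site 11 beyond site 10.

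In order of STAT5A score, site 10 stood above site 1 by 1.16 times (95% interval 1.04 to 1.29) and site 1 above site 9 by 1.13 times (1.00 to 1.27). Site 9 stood 2.35 times (2.02 to 2.75) above site 11, the widest step in the order. From site 11 down to sites 3 and 6, no site differed from its next neighbour in the order beyond counting error, with intervals that all included 1. The 3 shared sites carried 57.8% of the summed STAT5A score of the locus, 325.8 of 563.7.

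**Figure D1:**
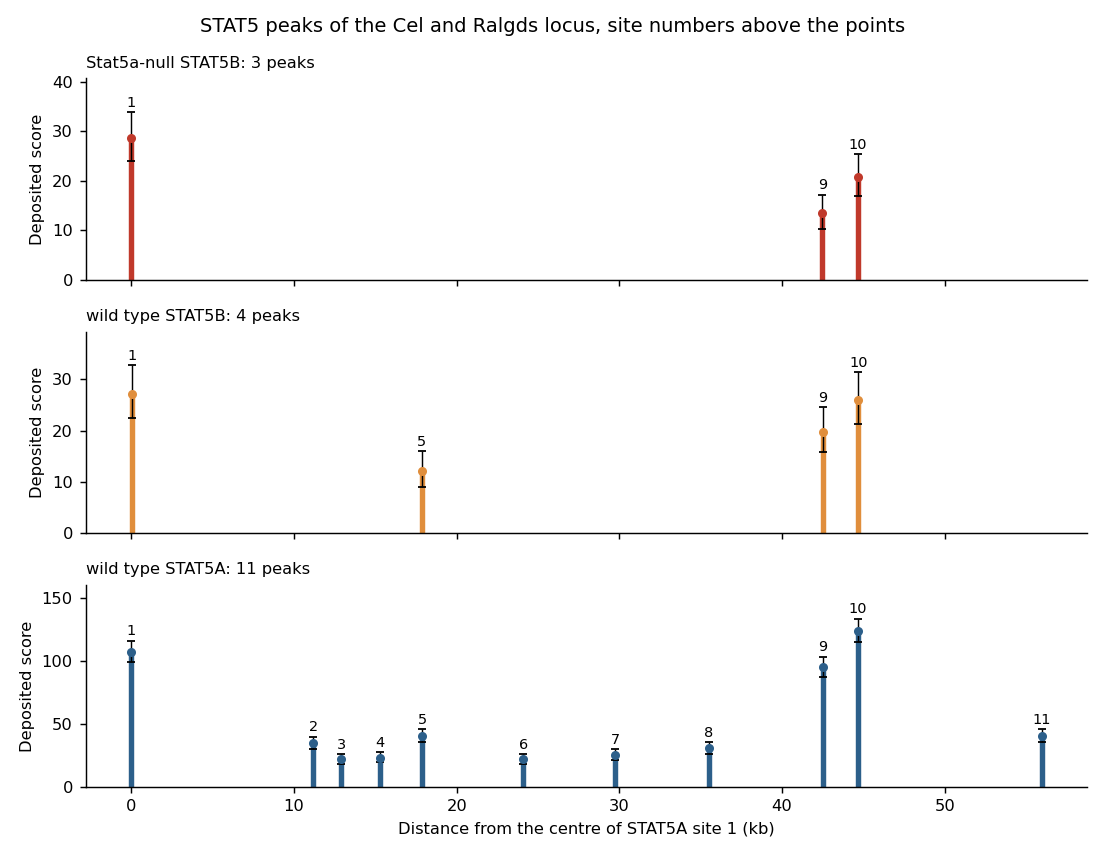
Deposited score (vertical axis, its own scale in each panel) of every peak of the locus by distance in kb from the centre of STAT5A site 1, for Stat5a-null STAT5B, wild type STAT5B and wild type STAT5A from top to bottom. Points and stems are scores of 1 library each, and bars are 95% Poisson intervals of the tags. Sites 1, 9 and 10 are in all panels, site 5 is in both wild type panels, and the other 7 sites are listed for STAT5A alone.

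Where peaks of different libraries overlapped at the locus, their centres lay at most 42 bp apart. Only overlapping peaks were paired, so closeness was in part a condition of the pairing. The centres of Stat5a-null and wild type STAT5B peaks were 35, 12 and 42 bp apart at sites 1, 9 and 10, against a median of 19 bp (quartiles 9 and 35 bp) over the 2426 such pairs. Stat5a-null STAT5B and wild type STAT5A centres were 23, 29 and 10 bp apart at the same sites. Wild type STAT5B and STAT5A centres were 12, 25, 17 and 32 bp apart at sites 1, 5, 9 and 10. Site 10 showed the widest offset between genotypes, slightly above the upper quartile and well within the 258 bp and 252 bp widths of those peaks.

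Within their own lists, the STAT5A peaks of sites 1, 9 and 10 were among the strongest. The Stat5a-null STAT5B peak at site 9 was in the lower-scoring part of its list. Stat5a-null STAT5B at sites 1, 10 and 9 stood at percentiles 87.4, 69.9 and 25.8 of its list, which are ranks 322, 766 and 1889. Wild type STAT5B at sites 1, 10, 9 and 5 stood at percentiles 81.2, 78.8, 60.7 and 8.995 of its list. Wild type STAT5A at sites 10, 1 and 9 stood at percentiles 96.8, 94.7 and 92.6, with ranks 841, 1378 and 1947. The other 8 STAT5A peaks stood between percentiles 38.1 and 67.7. Lists of such different length cannot show a change of rank between genotypes.

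**Figure D2:**
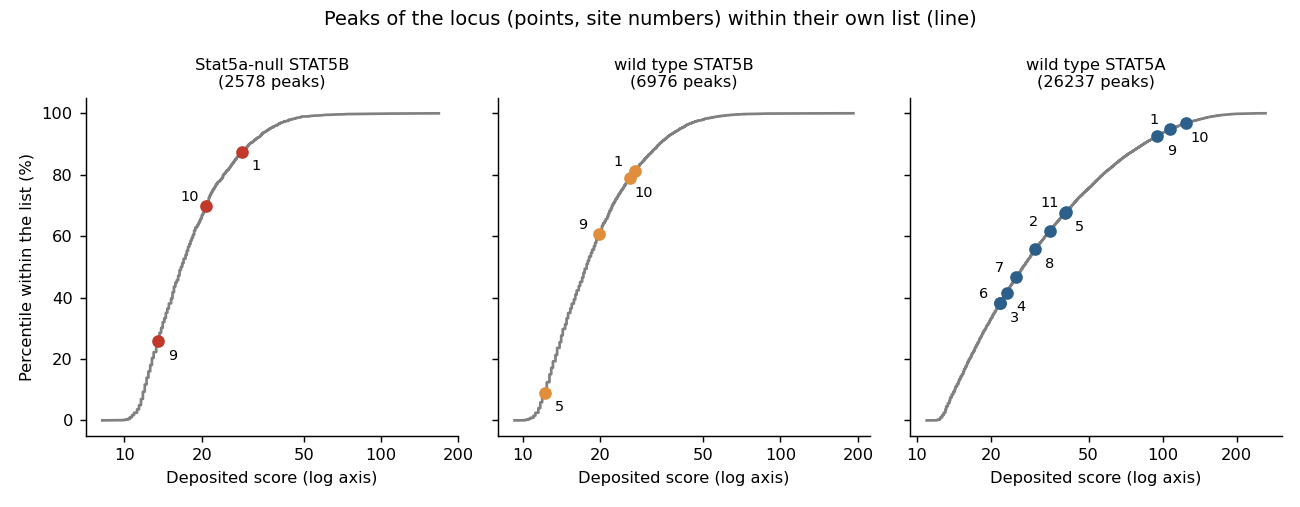
Percentile within the list (vertical axis) against deposited score (log axis) for all peaks of Stat5a-null STAT5B, wild type STAT5B and wild type STAT5A (lines) and for the peaks of the locus (points with site numbers). STAT5A sites 1, 9 and 10 stand above percentile 92, apart from the other 8. STAT5B peaks stand from percentile 25.8 to 87.4 in Stat5a-null tissue and from 8.995 to 81.2 in wild type tissue. The lists differ in length, so percentiles are not compared between panels.

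The comparison of genotypes asks which STAT5B sites of the locus were found when STAT5A was missing. All 3 Stat5a-null STAT5B peaks lay on a wild type STAT5B peak, which holds for 94.1% of the whole Stat5a-null list, and all 3 lay on a STAT5A peak, which holds for 98.4%. Of the 4 wild type STAT5B peaks, 3 had a Stat5a-null peak, a share of 75% (exact Clopper-Pearson 95% interval 19.4% to 99.4%). The background in the whole wild type STAT5B list was 34.8%, which lies inside that interval. The interval of 4 peaks is too wide, and neighbouring peaks are not independent trials, so this comparison cannot show whether the locus differs from the whole list. All 4 wild type STAT5B peaks lay on a STAT5A peak, against 98.7% in the whole list.

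The 3 STAT5B sites found in Stat5a-null tissue had higher wild type STAT5B scores than the 1 that was missing, and 4 sites cannot show a rule. Site 1 belonged to the second-highest score decile of wild type STAT5B, where 72.5% of all peaks had a Stat5a-null peak. Site 10 belonged to the third (58.2%) and site 9 to the fourth (43.1%). Site 5 belonged to the lowest decile, in which 3.30% of peaks (2.10% to 4.91%) had a Stat5a-null peak. The 1 STAT5B site of the locus not listed in Stat5a-null tissue was thus in a class of sites that are rarely listed there.

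Among STAT5A peaks, sites with STAT5B were again mostly the higher-scoring ones. Of the 11 STAT5A peaks, 3 had Stat5a-null STAT5B, or 27.3% (6.02% to 61.0%), against 9.67% of the whole list. With wild type STAT5B there were 4, or 36.4% (10.9% to 69.2%), against 26.3% of the whole list. Both background shares lie inside the intervals. The intervals are wide and treat neighbouring peaks as independent trials, so they cannot show whether the locus differs from the whole list. Sites 1, 9 and 10 all fell into the highest STAT5A decile, in which 68.3% of peaks had Stat5a-null STAT5B and 99.2% had wild type STAT5B. Sites 2, 5 and 11 fell into the fourth decile, where the shares were 1.37% and 14.9%. The remaining 5 sites fell into the fifth to seventh deciles, where at most 0.724% of peaks had Stat5a-null STAT5B and at most 3.13% wild type STAT5B, and none of the 5 had either.

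**Figure D3:**
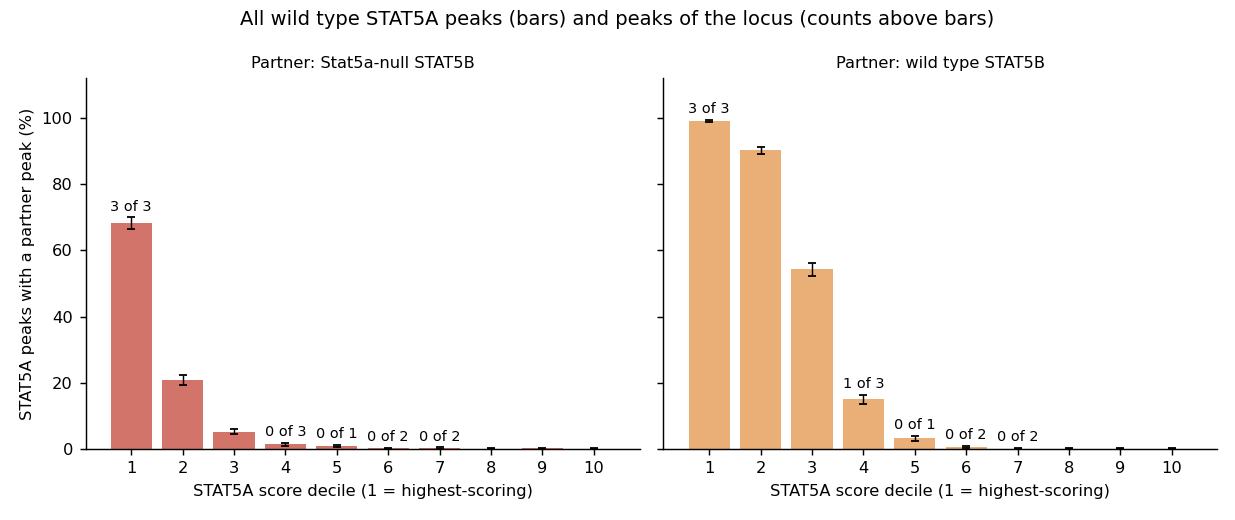
Share of all wild type STAT5A peaks that overlap a Stat5a-null STAT5B peak (left) or a wild type STAT5B peak (right), by STAT5A score decile, with exact 95% intervals as bars. Counts above the columns are the STAT5A peaks of the locus with such a partner. All 3 peaks of the locus in the highest decile had both partners, and 1 of 3 in the fourth decile had wild type STAT5B.

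Relative heights within a list do not depend on its scale, so they were set side by side for the 3 shared sites. In Stat5a-null tissue STAT5B at site 9 had 0.471 times the tags of site 1 (95% interval 0.344 to 0.638), against 0.728 times (0.542 to 0.975) in wild type tissue. For STAT5A in wild type tissue this ratio was 0.888 (0.790 to 0.997). STAT5B at site 10 had 0.728 times (0.556 to 0.95) the tags of site 1 in Stat5a-null tissue and 0.956 times (0.729 to 1.25) in wild type tissue, and STAT5A had 1.16 times. The intervals of the STAT5B libraries overlapped for both ratios. The ratio of site 10 to site 9 was 1.55 (1.12 to 2.15) for STAT5B in Stat5a-null tissue, 1.31 (0.978 to 1.77) in wild type tissue and 1.30 (1.17 to 1.46) for STAT5A.

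The place of the 3 sites among the sites found everywhere was compared over 1 common set, the 2401 STAT5A peaks that overlap STAT5B peaks of both genotypes. Site 1 ranked 310 in this set for STAT5B in Stat5a-null tissue (percentile 87.0, counting interval 78.2 to 92.4) and 1057 in wild type tissue (percentile 55.7, 37.4 to 71.4). For STAT5A it stood at percentile 53.0 (43.6 to 61.9). Its STAT5B percentile was 31.3 points higher in the Stat5a-null library than in the wild type library, and 8.20% of the 2401 sites had a gain at least as large. The counting intervals of site 1 in both STAT5B libraries did not meet, and how many of the 2401 sites show this was not determined. These intervals cover counting error in 1 library per genotype, so a genotype difference cannot be read from them.

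Sites 9 and 10 differed less in percentile between the STAT5B libraries. Site 10 was at percentile 68.6 (49.2 to 80.8) for STAT5B in Stat5a-null tissue and 50.8 (31.3 to 67.7) in wild type tissue, and at 69.3 for STAT5A. Site 9 was at percentile 23.8 (0.292 to 50.7) for STAT5B in Stat5a-null tissue and 24.7 (8.12 to 44.6) in wild type tissue, and at 38.7 for STAT5A. The intervals of both sites overlapped between the STAT5B libraries. The median absolute difference over the 2401 sites was 13.4 points. How far such differences vary between libraries of 1 genotype was not tested.

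**Figure D4:**
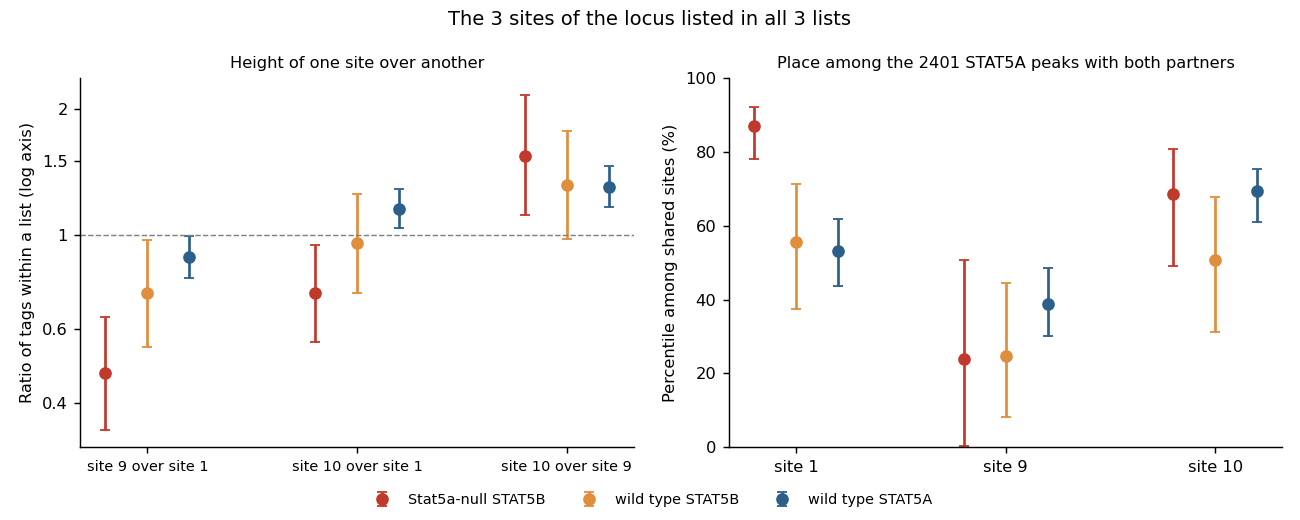
Left, ratio of tags between sites of the locus within a list (log axis, 95% intervals), from left to right Stat5a-null STAT5B, wild type STAT5B and wild type STAT5A. Right, percentile of sites 1, 9 and 10 among the 2401 STAT5A peaks with both partners, with counting intervals. At site 1 the Stat5a-null point (87.0) stands above the wild type points (55.7 for STAT5B and 53.0 for STAT5A).

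The run of 11 STAT5A peaks was 56.3 kb long (chr2:28377480-28433732), with neighbouring peaks between 1.44 and 11.05 kb apart and a median of 5.42 kb. Joined across gaps of at most 12.5 kb, it was 1 of 434 runs of 5 or more STAT5A peaks, with 4 runs larger and 3 others of the same size. The run was isolated. The nearest STAT5A peaks outside the window lay 151 kb left of the run (score 22.0) and 240 kb right of it (score 43.5). Neither carried STAT5B. In only 13 of the 434 runs, this one included, were both flanking gaps at least 151 kb, and the median of the shorter flanking gap was 23.1 kb. Among the 14 other runs of 10 or more peaks, the longest such gap was 101 kb. Runs just below that size had longer ones, as 190 kb for 9 peaks at chr2:92183961-92214237 and 228 kb for 8 peaks at chr12:105201501-105241169.

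The next STAT5B peaks were measured from the outermost peak of the same list at the locus. Distances longer than for STAT5A were largely set in advance. The STAT5B lists are shorter, and 98.4% of Stat5a-null and 98.7% of wild type STAT5B peaks lie on a STAT5A peak. How common distances of this length are in these lists was not determined. The next Stat5a-null STAT5B peaks were 787 kb to the left (score 10.9) and 1578 kb to the right (score 32.8), against a median spacing of 312 kb in that list. The next wild type STAT5B peaks were 167 kb to the left (score 18.9) and 1231 kb to the right (score 12.9), against a median spacing of 87.2 kb. Both of these wild type peaks overlapped a STAT5A peak, and neither had a Stat5a-null partner.

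Set beside the 3 other runs of 11 STAT5A peaks, the locus held fewer wild type STAT5B peaks and a similar number of Stat5a-null ones. It had 3 Stat5a-null and 4 wild type STAT5B peaks and a median STAT5A score of 34.7. The run at chr2:103188369-103237925 had 3 Stat5a-null and 6 wild type STAT5B peaks, with a median STAT5A score of 43.5. The run at chr12:87397786-87451155 had 2 Stat5a-null and 7 wild type STAT5B peaks, with a median of 69. The run at chr12:81913018-81986555 had 4 Stat5a-null and 7 wild type STAT5B peaks, with a median of 73.5. Over the 15 runs of 10 or more peaks the median was 2 Stat5a-null and 4 wild type STAT5B peaks, with 0 to 5 Stat5a-null and 2 to 13 wild type STAT5B peaks per run. These counts are too small for a difference to be read from them.

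A clean order of sites by STAT5A score was seen for Stat5a-null STAT5B, whose 3 partners all scored above every other STAT5A peak of the run. The same held in 177 of the 217 runs (81.6%) in which some but not all STAT5A peaks had Stat5a-null STAT5B. For wild type STAT5B the order was broken at the locus, as site 5 (40.2) had a STAT5B peak and site 11 (40.4) had none. The order held in 298 of 351 such runs (84.9%). The scores of sites 5 and 11 came from 234 and 235 tags and did not differ beyond counting error.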

How the data were processed

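Samples were grouped by their titles, with genotypes from the series' design text. Per the submitters' processing notes, CASAVA, BWA and HOMER were used on mm9, and these notes give no versions, control library or thresholds. Each list as deposited holds 1 sample's peaks with the authors' score, a signal of unstated scale. The other 7 samples were not used here.

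Starts were read as 0-based and are printed 1-based. Peaks overlapping the window by at least 1 bp were members, and peaks of different lists that overlapped by at least 1 bp were partners. Tags are scores divided by the coarsest step that fits every score within 0.05. Total reads are unknown, and tags without molecular identifiers are not independent molecules, so intervals cover counting error only. Intervals are exact Poisson, Clopper-Pearson or, for ratios, conditional binomial ones. Percentile intervals place the ends of the tag interval in the same set. Deciles were cut within a list, with ties ordered by position. The overlap step found all 500 planted peaks in simulated data, and 6 counts equalled those of bedtools 2.31.1. The computations used scipy 1.17.1, numpy 2.4.6 and pandas 2.3.3 under Python 3.11.15, with matplotlib 3.10.9 for plots.

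Every peak of the window is named. Members and lists were chosen with earlier results of these data known. The planned placement of peaks relative to genes and the motif search under peaks were not run, since no mm9 sequence or annotation was used. Alternatives concerned overlap, list length, window and gap.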

Additional observations from a re-analysis of the deposited data

How the results depend on the processing

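Across 44 alternatives of 8 counts, 37 stayed within 1.5 times the reported count, a limit that lets a fall from 3 to 2 pass. With the higher-scoring 50% of each list, Stat5a-null peaks in the window fell from 3 to 2, as site 9 dropped out. The overlap counts that involve Stat5a-null peaks fell from 3 to 2 as well, and wild type STAT5B peaks fell from 4 to 3. Requiring 50% overlap of both peaks, centres within 100 bp or a gap of up to 500 bp moved none of the counts concerned. Using the STAT5A run alone or widening the window by 20 kb on each side also moved none, but neither could. Every peak of the window overlaps the run, and the nearest peak outside lay 114 kb beyond the window. Each of these latter settings supplies 7 of the 44 alternatives, all counted as unmoved. The number of STAT5A peaks in the window depended on list length by construction: it was 7 with the higher-scoring 50% of each list and 3 with lists cut to the shortest. The largest run within the window was then 4 and 2 peaks, and it was 4 peaks with gaps of at most 5 kb, below the 5 that define a run. With lists cut to the shortest, 2 wild type STAT5B peaks remained in the window and 2 STAT5A peaks had one, because site 9 dropped out of the wild type STAT5B list along with site 5. All 3 Stat5a-null peaks stayed in the window, as theirs is the shortest list, and 2 of them then had a wild type STAT5B partner. No replicate could be left out, with 1 library per group.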

Other observations

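The next protein-coding gene beyond Gtf3c5 on GRCm38.p6 is Gfi1b, which encodes a zinc finger transcriptional repressor needed for red cell and platelet development. It is no member of the locus and was singled out after its sequence was seen. The 250 bases before its start (chr2:28621983-28622232, minus strand) held both STAT forms: TTCNNNNGAA as TTCTGGAGAA, beginning 163 bases before the start, and TTCNNNGAA as TTCTGTGAA at 133 bases. Over all 32851 stretches, TTCNNNGAA was in 7.02% and TTCNNNNGAA in 5.85%. Neither form was in the stretches before the starts of Cel, Gbgt1 and Gtf3c5 or the upstream Ralgds start. The downstream Ralgds start held TTCNNNNGAA. The stretch is printed with these matches and a TTGGC core in capitals, and whether an mm9 peak lies on it was not determined.
Gfi1b: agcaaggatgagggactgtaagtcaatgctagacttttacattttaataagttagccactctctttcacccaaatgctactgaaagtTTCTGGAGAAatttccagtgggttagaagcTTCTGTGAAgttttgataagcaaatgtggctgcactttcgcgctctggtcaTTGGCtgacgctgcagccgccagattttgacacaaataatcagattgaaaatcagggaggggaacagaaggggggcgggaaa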
